A study of Homo sapiens with 24 samples.

Results

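Prefoldin is a hexameric cochaperone built from the products of 6 genes: the alpha-type subunits VBP1 (also called PFDN3) and PFDN5, and the beta-type subunits PFDN1, PFDN2, PFDN4 and PFDN6. Their transcripts were followed on 24 Affymetrix GeneChip arrays of LNCaP cells, an androgen-responsive human prostate cancer line. The family was chosen by the AGO2-bound values of PFDN2, which were far lower after each of 3 microRNAs than after a scramble. These values are therefore described with no test, while the other subunits were taken by membership of the complex. Each gene was read from the probe set annotated to it alone that had the highest mean over the 24 arrays. This gave 5 of the 6 genes, among 11963 genes measured in this way. PFDN6 had no such probe set, because both of its probe sets are also annotated to MIR6834, and it was not analysed here.

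The cells were nucleofected with a plasmid (2.5 µg) encoding miR-130a, miR-203 or miR-205, or with a scramble. From each transfection, either RNA bound to the Argonaute protein AGO2, recovered with an antibody, or total RNA was hybridised. The 8 groups were therefore miR-130a, miR-203, miR-205 and scramble in AGO2-bound RNA and the same transfections in total RNA, with 3 arrays labelled as biological replicates in each. All are of 1 cell line. How the replicate cultures were separated is not given in the sources used here, and the p-values thus rest on array-to-array spread, which may be technical. The series was made to profile mRNAs that these microRNAs bring to AGO2.

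Prefoldin captures unfolded actin and tubulin as they leave the ribosome and passes them to the chaperonin CCT, in which they reach their native fold. PFDN2 and PFDN6 also occur with URI1, UXT and PDRG1 in a prefoldin-like complex that works with the R2TP cochaperone. MicroRNAs guide AGO2 to mRNAs mainly through the seed near their 5′ end, so an mRNA recruited by a transfected microRNA is enriched in AGO2-bound RNA. The mature sequences of miR-203 and miR-205 below are those of RefSeq on GRCh38.p14 and are shown to define these 2 of the 3 transfected microRNAs, miR-130a being named only, with bases 2 to 8, the seed, in capitals. The sample labels do not name the arm, and the usual arm is given. The seeds of the pair differ.
hsa-miR-203a-3p (chr14:104117469-104117490, plus strand): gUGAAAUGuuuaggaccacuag
hsa-miR-205-5p (chr1:209432166-209432187, plus strand): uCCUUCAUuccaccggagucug

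Expression is given as the deposited log2 value of a probe set, so 1 unit is a doubling, and levels of different genes cannot be set against each other. All 5 measured subunits lay above the lowest value of every array and passed the filter on dim probe sets, as did 6782 genes in all. The arrays fell into 3 sets that each share 1 lowest value, here called normalization runs: 6 arrays of miR-130a, 6 of miR-203, and 12 of miR-205 and scramble together. For miR-130a and miR-203, the run and the microRNA cannot be told apart. Among the LNCaP markers fixed for the check of identity, 7 of 10 were measured and 6 lay above the lowest value on all arrays. The exception was FOLH1, at 2.35 to 4.75, which lay within 0.05 of the lowest value on 2 arrays. Of the markers of other prostate lines, 5 of 6 were measured and no value exceeded 3.83. KRT5 and CAV1 lay within 0.05 of the lowest value on all arrays, KRT14 on 22 and CD44 on 23. VIM, at 2.39 to 3.83, did so on only 1. The 3 prime signal of ACTB, a sign of RNA quality, exceeded its 5 prime signal in AGO2-bound RNA by 2.22 to 2.78 with miR-130a, 2.3 to 2.93 with miR-203 and 3.20 to 3.94 with miR-205, against 2.93 to 3.84 with scramble, and by 2.00 to 2.44 in total RNA. For GAPDH the AGO2-bound differences averaged 1.25 ± 0.05 with miR-130a, 0.77 ± 0.15 with miR-203 and 1.55 ± 0.17 with miR-205, against 1.40 ± 0.17 with scramble (SD, n = 3). The ACTB arrays of miR-130a lay below all scramble arrays and the GAPDH arrays of miR-203 did too, while the miR-205 arrays overlapped scramble in both. The part of these differences in the comparisons was not tested. In bulk RNA, fewer cells with a transcript and less of it per cell cannot be told apart.

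PFDN2 stood high in AGO2-bound RNA of scramble-transfected cells and lower everywhere else, at 6.88 to 8.28 over the other 21 arrays. Its AGO2-bound values were 7.64, 7.17 and 7.32 with miR-130a, 7.28, 6.88 and 7.10 with miR-203, and 8.23, 8.28 and 7.68 with miR-205. In AGO2-bound scramble RNA they were 11.43, 11.79 and 11.89. The 3 scramble arrays thus lay above all 9 microRNA arrays with no overlap. PFDN2 was 20.0-fold lower after miR-130a than after scramble (log2 difference -4.32 ± 0.19, SE, n = 3 each), 24.5-fold lower after miR-203 (-4.62 ± 0.19) and 12.5-fold lower after miR-205 (-3.64 ± 0.19). The miR-205 and scramble arrays share a normalization run, so that difference is one within a run. The 3 comparisons share the 3 AGO2-bound scramble arrays.

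Total RNA held PFDN2 in a narrow range. The values were 7.68, 7.79 and 7.75 with miR-130a, 7.81, 7.97 and 7.94 with miR-203, 7.55, 7.95 and 7.62 with miR-205, and 7.82, 7.67 and 7.51 with scramble. All 12 arrays of total RNA therefore lay between 7.51 and 7.97, and every microRNA group overlapped scramble in total RNA. Ordered by mean from low to high, PFDN2 averaged 7.08 ± 0.20 (SD, n = 3) in AGO2-bound miR-203, 7.38 ± 0.24 in AGO2-bound miR-130a, 7.66 ± 0.15 in total scramble and 7.71 ± 0.22 in total miR-205. The order went on with 7.74 ± 0.06 in total miR-130a, 7.91 ± 0.08 in total miR-203, 8.06 ± 0.33 in AGO2-bound miR-205 and 11.70 ± 0.24 in AGO2-bound scramble. Below the last place, neighbours in this order overlapped, except that the lowest total miR-203 array (7.81) lay just above the highest total miR-130a array (7.79).

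The distance between the lowest AGO2-bound scramble array and the highest of the other 21 arrays was 3.15 for PFDN2, against a range of 6.88 to 8.28 over those 21 arrays. This describes the arrays that chose the family. A count made after the data were seen took the genes whose 3 arrays of a group all lay at least 2 above every other array. It gave 11 genes for AGO2-bound miR-130a, 13 for AGO2-bound miR-203 and 33 for AGO2-bound miR-205, with no subunit among them, and 9 genes (0.133%) for AGO2-bound scramble, where PFDN2 was the only subunit.

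**Figure D1:**
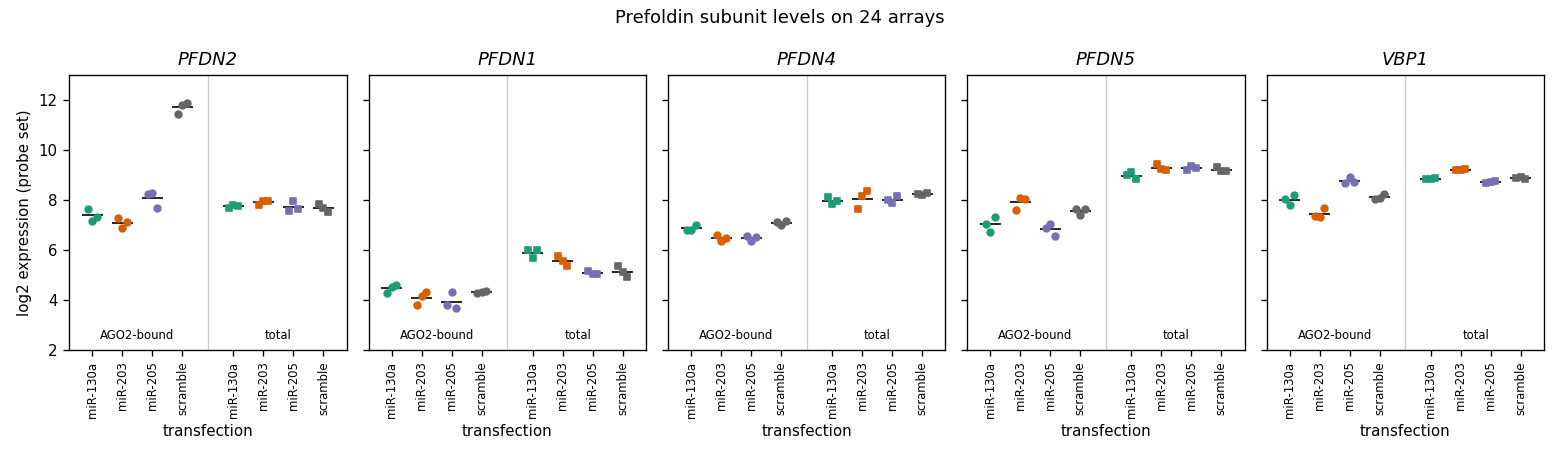
Log2 expression (y axis) of the 5 measured prefoldin subunits on each array, by transfection (x axis), with AGO2-bound RNA left and total RNA right of the grey line; each point is 1 array and each bar the mean of 3. The AGO2-bound scramble arrays of PFDN2, at 11.43 to 11.89, stand above all its other arrays, and the 4 other subunits show no such group.

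No other subunit fell in AGO2-bound RNA by an amount near that of PFDN2, though PFDN1 was too dim for such a fall to show. Of 12 tests over 4 subunits and 3 microRNAs, 5 were lower, 1 was higher and 6 did not pass the threshold, an adjusted p of 0.05 over all 6782 genes (limma, Benjamini-Hochberg). The log2 differences lay between -0.71 and 0.65, against -4.62 to -3.64 for PFDN2. After miR-130a, 1 of the 4 subunits passed, where 38.5% of all genes did; after miR-203 it was 2 of 4, where 51.4% did, and after miR-205 it was 3 of 4, where 44.0% did. Calls were thus common on these arrays. Called lower were PFDN5 after miR-130a, PFDN4 and VBP1 after miR-203, and PFDN4 and PFDN5 after miR-205, where VBP1 was higher. The shares of all genes called lower were 19.9%, 28.8% and 23.7% for miR-130a, miR-203 and miR-205. After miR-205, 20.4% of all genes were higher. With the replicate number as a block, PFDN1 passed after miR-205 too (-0.40, limma adjusted p = 0.04).

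PFDN4, a beta-type subunit, fell after miR-203 and miR-205. Its AGO2-bound values were 6.81, 6.81 and 6.98 with miR-130a, 6.58, 6.35 and 6.49 with miR-203, and 6.57, 6.34 and 6.52 with miR-205, against 7.13, 6.98 and 7.17 with scramble. The arrays of each microRNA all lay below scramble, though the highest miR-130a array and the lowest scramble array both round to 6.98. The log2 differences were -0.62 ± 0.13 for miR-203 (SE; limma, adjusted p = 0.0012), -0.62 ± 0.13 for miR-205 (limma, adjusted p = 0.0014) and -0.23 ± 0.13 for miR-130a (limma, adjusted p = 0.18). A second, dim PFDN4 probe set, at 2.85 to 3.29 in AGO2-bound RNA, differed by -0.14 after miR-203 and by -0.06 after miR-205, with limma adjusted p = 0.41 and 0.75, so the calls rest on the brighter one. A further PFDN4 probe set lay at or near the lowest value.

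VBP1, an alpha-type subunit first named for binding the VHL tumour suppressor, moved in opposite directions after miR-203 and miR-205. Its AGO2-bound values were 8.05, 7.80 and 8.18 with miR-130a, 7.36, 7.31 and 7.67 with miR-203, and 8.67, 8.91 and 8.71 with miR-205, against 8.05, 8.08 and 8.22 with scramble. The miR-203 arrays all lay below scramble, the miR-205 arrays all above it, and the miR-130a arrays overlapped it. The log2 difference was -0.67 ± 0.15 for miR-203 (limma, adjusted p = 0.0018) and 0.65 ± 0.15 for miR-205 (limma, adjusted p = 0.0028). For miR-130a it was -0.11 ± 0.15 (limma, adjusted p = 0.61, 95% interval -0.42 to 0.21).

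PFDN5, the alpha-type subunit also known as the MYC-binding protein MM-1, was lower after miR-130a and miR-205. Its AGO2-bound values were 7.03, 6.71 and 7.31 with miR-130a, 7.60, 8.07 and 8.05 with miR-203, and 6.88, 7.04 and 6.57 with miR-205, against 7.62, 7.38 and 7.62 with scramble. The miR-130a and miR-205 arrays lay below every scramble array, while the lowest miR-203 array lay within the scramble range. The log2 difference was -0.71 ± 0.19 for miR-205 (limma, adjusted p = 0.0071), -0.52 ± 0.19 for miR-130a (limma, adjusted p = 0.041) and 0.37 ± 0.19 for miR-203 (limma, adjusted p = 0.12). The miR-130a call of PFDN5 was narrow: it ended without AGO2-bound miR-130a replicate 1 (limma adjusted p = 0.08) or 2 (0.18), without AGO2-bound scramble replicate 1 (0.1), 2 (0.051) or 3 (0.11), with no filter (0.097) and in the second PFDN5 probe set (-0.58, 0.062). PFDN5 after miR-203 passed without AGO2-bound miR-203 replicate 1 (0.52, limma adjusted p = 0.044), with quantile normalization (0.46, 0.046) and with all 24 arrays in the fit (0.37, 0.044).

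PFDN1, a beta-type subunit, passed the threshold after none of the microRNAs in AGO2-bound RNA in the main fit, which had no replicate block. Its values were 4.29, 4.51 and 4.59 with miR-130a, 3.78, 4.15 and 4.32 with miR-203, and 3.79, 4.31 and 3.67 with miR-205, against 4.29, 4.32 and 4.37 with scramble. At least 1 array of each microRNA lay within the scramble range. The log2 differences were 0.14 ± 0.18 for miR-130a, -0.24 ± 0.18 for miR-203 and -0.40 ± 0.18 for miR-205, with limma adjusted p = 0.59, 0.29 and 0.091. The 95% interval of the miR-205 difference was -0.80 to -0.01. In AGO2-bound scramble RNA PFDN1 averaged 4.33, and the lowest value of those arrays was 2.35. A fall as large as that of PFDN2 could therefore not show for PFDN1. PFDN1 passed after miR-205 without AGO2-bound miR-205 replicate 2 (-0.60, limma adjusted p = 0.017), with the replicate number as a block (0.04) and with all 24 arrays in the fit (0.044).

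**Figure D2:**
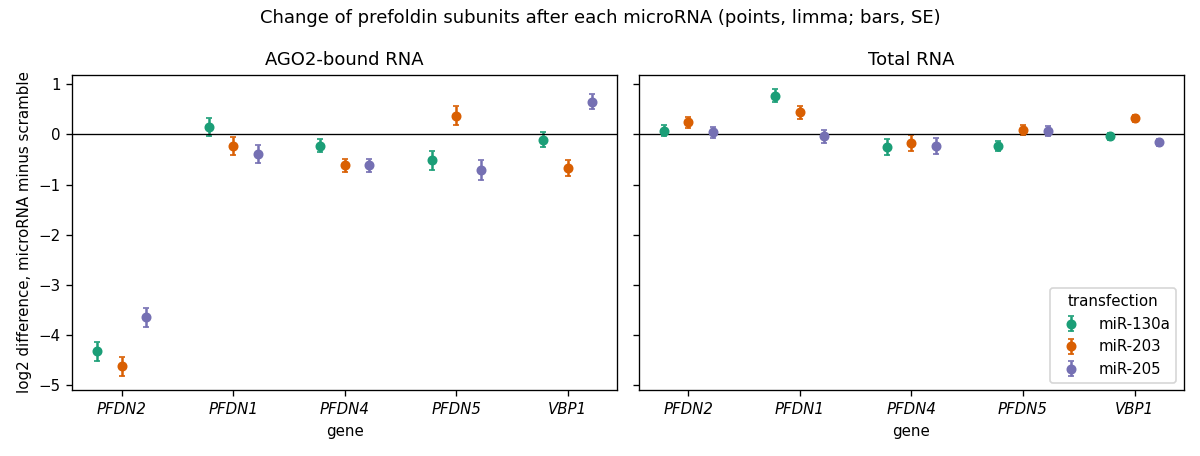
Log2 difference, microRNA minus scramble (y axis), of each measured subunit (x axis) in AGO2-bound RNA (left) and total RNA (right); points are limma estimates from 3 arrays a group and bars their SE. PFDN2 lies between -4.62 and -3.64 in AGO2-bound RNA, while all other points lie between -0.71 and 0.77.

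The microRNA groups were also set directly against each other in AGO2-bound RNA, in comparisons added after the data were seen. Among the 4 tested subunits, the largest differences were those of VBP1 and PFDN5 between miR-203 and miR-205. Between miR-130a and miR-205, PFDN5 differed by 0.19 ± 0.19 (limma, adjusted p = 0.43). PFDN2, described only, differed by 0.29 ± 0.19 for miR-130a against miR-203. For PFDN2 the difference was -0.68 ± 0.19 for miR-130a against miR-205 and -0.98 ± 0.19 for miR-203 against miR-205. Each microRNA lay in a different normalization run, so run and microRNA cannot be told apart in any of these comparisons, those with miR-205 included. VBP1 was lower after miR-203 than after miR-205 by a log2 difference of -1.32 ± 0.15 (limma, adjusted p = 4.5e-06), and PFDN5 was higher by 1.08 ± 0.19 (limma, adjusted p = 0.00025). These were the 2 of 4 subunits that passed in this comparison, where 53.4% of all genes did. Of miR-130a against miR-203, 3 of 4 passed (55.0% of all genes): PFDN4 by 0.39 ± 0.13 (limma, adjusted p = 0.019), PFDN5 by -0.89 ± 0.19 (0.0012) and VBP1 by 0.57 ± 0.15 (0.005). PFDN1 differed there by 0.38 ± 0.18 (limma, adjusted p = 0.094, and 0.045 with the replicate number as a block). Of miR-130a against miR-205, 3 of 4 passed (49.1% of all genes): PFDN1 by 0.54 ± 0.18 (limma, adjusted p = 0.024), PFDN4 by 0.39 ± 0.13 (0.021) and VBP1 by -0.75 ± 0.15 (0.00074). The PFDN4 calls ended without AGO2-bound miR-130a replicate 3 (limma adjusted p = 0.071 against miR-203 and 0.078 against miR-205), without AGO2-bound miR-203 replicate 2 (0.071) or AGO2-bound miR-205 replicate 2 (0.083). The PFDN1 call ended without AGO2-bound miR-130a replicate 2 (limma adjusted p = 0.069) or 3 (0.081), without AGO2-bound miR-205 replicate 1 (0.078) or 3 (0.098), and with no filter (0.061). No order among the microRNAs held for all 4 subunits.

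Total RNA showed how far the transcripts themselves differed. Over 5 subunits and 3 microRNAs, 3 of 15 tests were higher, 0 were lower and 12 did not pass (limma). After miR-130a 1 of 5 subunits passed, where 29.3% of all genes did and 15.9% were higher; after miR-203 it was 2 of 5 (39.6%, 19.8% higher), and for miR-205 it was 0 of 5 (23.5%, 10.1% higher). PFDN2, tested here because its total RNA did not choose the family, differed by 0.07 ± 0.11 with miR-130a, 0.24 ± 0.11 with miR-203 and 0.04 ± 0.11 with miR-205, with limma adjusted p = 0.66, 0.11 and 0.84. The 95% intervals of -0.17 to 0.32, 0.00 to 0.49 and -0.20 to 0.29 leave out a fall of the size seen in AGO2-bound RNA.

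The subunits that passed in total RNA were PFDN1 and VBP1. PFDN1 had 6.01, 5.66 and 6.0 with miR-130a, 5.75, 5.55 and 5.36 with miR-203, and 5.15, 5.05 and 5.03 with miR-205, against 5.34, 5.10 and 4.92 with scramble. The miR-130a and miR-203 arrays lay above every scramble array and the miR-205 arrays among them. PFDN1 rose by 0.77 ± 0.13 after miR-130a (limma, adjusted p = 0.0012) and by 0.44 ± 0.13 after miR-203 (limma, adjusted p = 0.021), and differed by -0.04 ± 0.13 after miR-205 (limma, adjusted p = 0.88). The miR-203 call of PFDN1 ended without total miR-203 replicate 1 (0.34, limma adjusted p = 0.081), without total scramble replicate 2 (0.43, 0.053) or 3 (0.34, 0.086), and with no filter (0.058).

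VBP1 in total RNA had 8.84, 8.82 and 8.87 with miR-130a, 9.18, 9.18 and 9.25 with miR-203, and 8.67, 8.73 and 8.76 with miR-205, against 8.89, 8.91 and 8.84 with scramble. The miR-203 arrays lay highest and the miR-205 arrays lowest, the reverse of the order in AGO2-bound RNA. VBP1 rose by 0.32 ± 0.07 after miR-203 (limma, adjusted p = 0.0031) and differed by -0.16 ± 0.07 after miR-205 (limma, adjusted p = 0.12, and 0.012 with no filter). After miR-130a VBP1 differed by -0.04 ± 0.07 (limma, adjusted p = 0.72).

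PFDN4 and PFDN5 did not pass after any microRNA in total RNA. PFDN4 had 8.12, 7.84 and 7.94 with miR-130a, 7.62, 8.15 and 8.37 with miR-203, and 8.0, 7.86 and 8.15 with miR-205, against 8.22, 8.19 and 8.28 with scramble. The miR-130a and miR-205 arrays lay just below scramble and the miR-203 arrays straddled it, with log2 differences of -0.26 ± 0.16, -0.18 ± 0.16 and -0.23 ± 0.16 for miR-130a, miR-203 and miR-205 (limma, adjusted p = 0.23, 0.38 and 0.33). PFDN5 had 8.99, 9.10 and 8.82 with miR-130a, 9.42, 9.25 and 9.21 with miR-203, and 9.20, 9.35 and 9.29 with miR-205, against 9.33, 9.15 and 9.15 with scramble. Only the miR-130a arrays lay apart from scramble, below it, with a log2 difference of -0.24 ± 0.10 (limma, adjusted p = 0.087). That difference passed with each array centred on its median (-0.29, limma adjusted p = 0.028), with an intensity trend in the prior (0.042) and in the second PFDN5 probe set (-0.34, 0.012).

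Within each transfection, the subunits other than PFDN2 were mostly lower in AGO2-bound than in total RNA. Of 16 tests of PFDN1, PFDN4, PFDN5 and VBP1 in the 4 transfections, 15 were lower in AGO2-bound RNA and 1 did not pass (limma). All 4 were lower after miR-130a, where 38.3% of all genes were, all 4 after miR-203 (37.2%), 3 after miR-205 (36.1%) and all 4 after scramble (37.8%). PFDN5 differed by -1.95 ± 0.15 after miR-130a, -1.38 ± 0.15 after miR-203, -2.45 ± 0.15 after miR-205 and -1.67 ± 0.15 after scramble. PFDN4 differed by -1.57 to -1.10 and PFDN1 by -1.47 to -0.79. The dim PFDN4 probe set differed by -0.16 after miR-130a (limma, adjusted p = 0.25) and by -0.07 after scramble (limma, adjusted p = 0.62).

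VBP1 was lower in AGO2-bound than in total RNA with miR-130a (-0.83 ± 0.12) and miR-203 (-1.75 ± 0.12). With miR-205 it differed by 0.05 ± 0.12 (limma, adjusted p = 0.74, 95% interval -0.20 to 0.29), against -0.76 ± 0.12 with scramble. PFDN2, described only, differed by -0.36 ± 0.16 with miR-130a, -0.82 ± 0.16 with miR-203 and 0.35 ± 0.16 with miR-205, against 4.04 ± 0.16 with scramble, a 16.4-fold higher level in AGO2-bound scramble RNA. After the microRNAs, PFDN2 was thus within 0.82 of its total RNA level. Centring each array on its median moved the median of all genes to between -0.18 and -0.13, against -0.08 to -0.01 otherwise, and the VBP1 value after miR-205 to -0.13, while the 15 lower calls stayed.

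**Figure D3:**
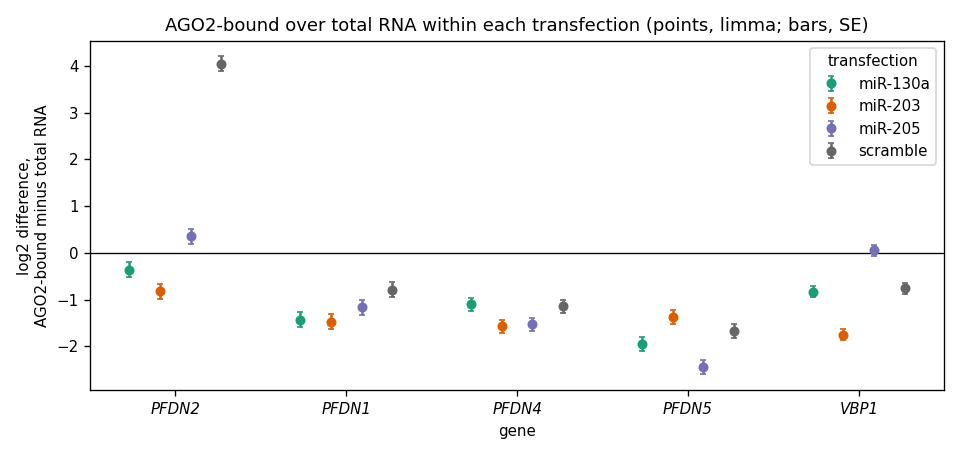
Log2 difference, AGO2-bound minus total RNA (y axis), of each measured subunit (x axis) within each transfection (colours); points are limma estimates from 3 arrays a group and bars their SE. The scramble point of PFDN2 lies at 4.04, and the other subunits lie between -2.45 and 0.05.

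Whether a change in AGO2-bound RNA exceeded that in total RNA was tested as a difference of the changes. After miR-130a 1 of the 4 subunits other than PFDN2 passed, where 34.5% of all genes did, after miR-203 it was 2 of 4 (49.1%) and after miR-205 it was 2 of 4 (42.8%). VBP1 differed by -0.99 ± 0.16 after miR-203 (limma, adjusted p = 2.2e-05) and by 0.81 ± 0.16 after miR-205 (limma, adjusted p = 0.00032). PFDN5 differed by -0.78 ± 0.22 after miR-205 (limma, adjusted p = 0.0055). PFDN1 differed by -0.63 ± 0.23 after miR-130a (limma, adjusted p = 0.037) and by -0.68 ± 0.23 after miR-203 (limma, adjusted p = 0.019), in both cases with a rise in total RNA and no call in AGO2-bound RNA. PFDN4 passed after none, at 0.04 ± 0.20, -0.44 ± 0.20 and -0.39 ± 0.20 for miR-130a, miR-203 and miR-205 (limma, adjusted p = 0.92, 0.08 and 0.13). PFDN2, described only, differed by -4.40, -4.86 and -3.68.

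These calls of PFDN1 were narrow. The miR-130a one ended without AGO2-bound miR-130a replicate 1 (limma adjusted p = 0.092) or 2 (0.052), total miR-130a replicate 1 (0.087) or 3 (0.085), AGO2-bound scramble replicate 2 (0.06) or 3 (0.063), or total scramble replicate 2 (0.065) or 3 (0.1), and with no filter (0.081) or arrays centred (0.051). The miR-203 one ended without AGO2-bound miR-203 replicate 1 (0.068), total miR-203 replicate 1 (0.055) or total scramble replicate 3 (0.057). PFDN4 after miR-203 passed without total miR-203 replicate 1 (-0.65, limma adjusted p = 0.004), and PFDN1 after miR-205 passed without AGO2-bound miR-205 replicate 2 (-0.56).

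Genes that work beside prefoldin were read from 5 lists. The chaperonin CCT, which receives prefoldin's cargo, had 7 of 8 genes tested, and in AGO2-bound RNA 3 were higher and 0 lower with miR-130a, 6 and 0 with miR-203, and 4 and 1 with miR-205 (limma). In the same AGO2-bound comparisons, 18.6% of all genes were higher and 19.9% lower with miR-130a, 22.7% and 28.8% with miR-203, and 20.4% and 23.7% with miR-205. The list's median log2 difference was 0.24, 1.09 and 0.42 for miR-130a, miR-203 and miR-205, where that of all genes was -0.05, -0.09 and -0.06. CCT6A rose by 1.73 ± 0.14 after miR-130a (limma, adjusted p = 3.5e-07) and by 1.92 ± 0.14 after miR-203 (9.3e-08), and was the 1 lower gene after miR-205 (-0.67 ± 0.14, 0.0013). CCT5 rose by 2.12 ± 0.20 after miR-130a (1.7e-06) and by 1.62 ± 0.20 after miR-205 (1.7e-05). CCT2 rose after all 3 microRNAs, by 0.71, 1.09 and 0.83.

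The prefoldin-like and R2TP genes, which share PFDN2 with prefoldin in the cell, had 7 of 9 tested. In AGO2-bound RNA 0 were higher and 1 lower with miR-130a, 3 and 1 with miR-203, and 3 and 2 with miR-205, with medians of 0.02, 0.38 and 0.03 (limma). The shares of all genes called lower, 19.9% for miR-130a, 28.8% for miR-203 and 23.7% for miR-205, are near or above those of the list, and the shares called higher were 18.6%, 22.7% and 20.4%. UXT, a prefoldin-like protein, differed by -1.17 ± 0.20 after miR-130a (limma, adjusted p = 0.00044) and by -1.12 ± 0.20 after miR-205 (0.00052). After miR-130a, 2 genes of the list were lower with the replicate block and 3 with all 24 arrays in the fit. RUVBL1 and RUVBL2, the ATPases of R2TP, rose by 2.87 ± 0.22 and 1.62 ± 0.19 after miR-203 (limma, adjusted p = 1.8e-07 and 1e-05), and POLR2E, a subunit of the RNA polymerases, rose by 2.16 ± 0.28 (2.8e-05). After miR-205 PIH1D1 rose by 1.42 ± 0.19 (limma, adjusted p = 3.9e-05) and URI1 by 1.04 ± 0.17 (0.00019), while RPAP3 differed by -1.07 ± 0.19 (0.00043). RPAP3 was also the lower gene after miR-203 (-0.63 ± 0.19, limma adjusted p = 0.013). The count of lower genes after miR-130a was 2 without AGO2-bound miR-203 replicate 3 or AGO2-bound miR-205 replicate 2 or 3, and after miR-203 it was 0 without AGO2-bound miR-203 replicate 1.

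The actin and tubulin genes that prefoldin serves had 10 of 12 tested, and 3 were higher and 3 lower with miR-130a, 0 and 4 with miR-203, and 1 and 6 with miR-205 in AGO2-bound RNA, with medians of 0.00, -0.29 and -0.46 (limma). Of all genes, 18.6% were higher and 19.9% lower with miR-130a, 22.7% and 28.8% with miR-203, and 20.4% and 23.7% with miR-205. The medians of all genes were -0.05, -0.09 and -0.06 for miR-130a, miR-203 and miR-205. TUBB2A, a beta-tubulin, was lower after all 3, with log2 differences of -1.34 ± 0.20, -1.85 ± 0.20 and -1.79 ± 0.20 for miR-130a, miR-203 and miR-205 (limma, adjusted p = 0.00014, 5.8e-06 and 7.8e-06). In the same order TUBB was lower too, at -1.02 ± 0.15, -1.38 ± 0.15 and -0.55 ± 0.15 (limma, adjusted p = 9e-05, 4.2e-06 and 0.0074). TUBA1A differed by -0.73 ± 0.19, -0.99 ± 0.19 and 1.03 ± 0.19 (limma, adjusted p = 0.0075, 0.00063 and 0.00053). TUBG1, the gamma-tubulin of the centrosome, differed by 2.00 ± 0.27 after miR-130a (limma, adjusted p = 4.3e-05) and by -1.81 ± 0.27 after miR-205 (8.1e-05). After miR-130a, 1 was higher without AGO2-bound miR-130a replicate 2 or AGO2-bound scramble replicate 3. After miR-205, 3 were lower without AGO2-bound scramble replicate 2, and after miR-203, 2 were higher with the replicate block, and 1 without AGO2-bound miR-203 replicate 3, with quantile normalization or with all 24 arrays in the fit.

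The tubulin folding cofactors, which assemble the tubulin heterodimer after CCT, had 5 of 5 tested: 1 was higher and 0 lower with miR-130a, 2 and 0 with miR-203, and 2 and 1 with miR-205 (limma, medians -0.01, 0.21 and 0.15). Over all genes the shares were 18.6% higher and 19.9% lower for miR-130a, 22.7% and 28.8% for miR-203, and 20.4% and 23.7% for miR-205, and 1 of 5 is near the first of these. TBCE rose by 3.14 ± 0.14 after miR-205 (limma, adjusted p = 1.1e-09). After miR-130a the higher gene was TBCC (0.51 ± 0.17, limma adjusted p = 0.028), which no longer passed without AGO2-bound miR-130a replicate 3 or AGO2-bound scramble replicate 2, nor with no filter, and the count was 2 with the replicate block or with all 24 arrays in the fit. Of the CCT cofactors, 2 of 3 were tested, and 0, 1 and 2 were higher after miR-130a, miR-203 and miR-205, with none lower (limma, medians 0.15, 0.30 and 0.72). PDCL, a phosducin-like regulator of CCT, was the gene after miR-203 (0.43 ± 0.16, limma adjusted p = 0.033), and it did not pass without AGO2-bound miR-203 replicate 1 or 3 or AGO2-bound scramble replicate 2, nor with no filter.

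**Figure D4:**
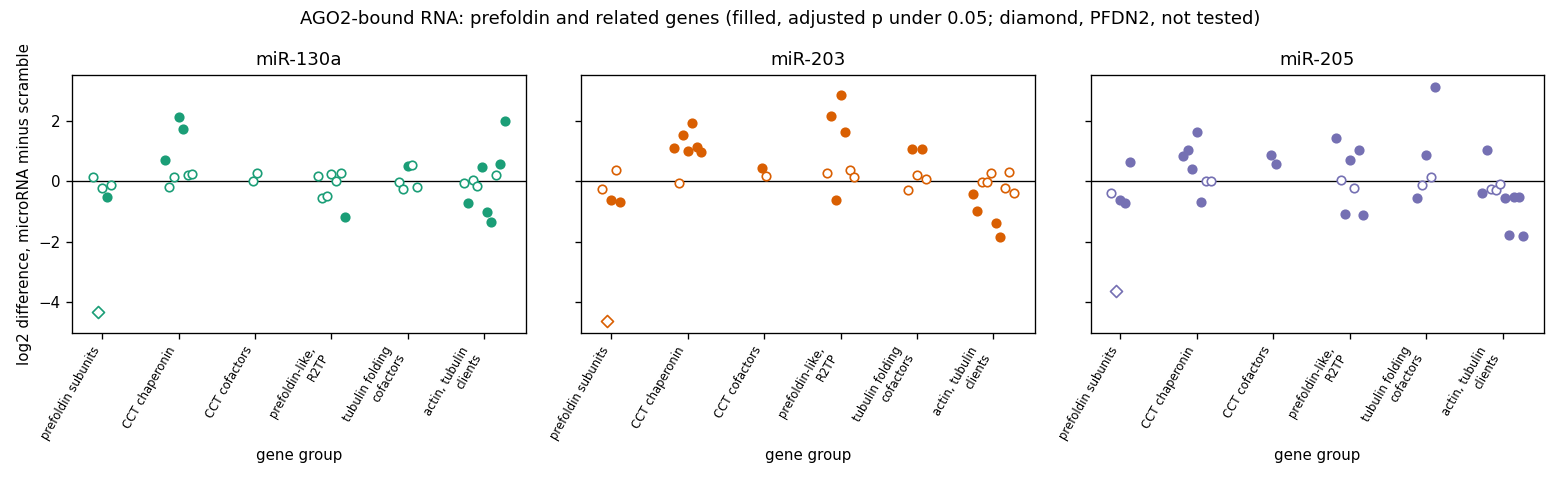
Log2 difference in AGO2-bound RNA, microRNA minus scramble (y axis), of the prefoldin subunits and 5 lists of related genes (x axis), with 1 panel for each microRNA; each point is a gene, filled where the limma adjusted p was under 0.05, and the diamond is PFDN2, not tested. PFDN2 lies below every other gene shown in each panel, and CCT genes reach 2.12 after miR-130a.

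The same lists were counted in total RNA, where 15.9% of all genes were higher and 13.3% lower with miR-130a, 19.8% and 19.8% with miR-203, and 10.1% and 13.3% with miR-205. Of the 7 CCT genes, 1 was higher and 1 lower with miR-130a, 1 and 0 with miR-203, and 0 and 0 with miR-205 (limma), and no CCT median exceeded 0.10. Of the prefoldin-like and R2TP genes 0 were higher and 1 lower, 1 and 1, and 0 and 3 after miR-130a, miR-203 and miR-205, with PIH1D1 at -0.71 ± 0.08 after miR-205 (limma, adjusted p = 5.3e-05). Of the tubulin folding cofactors 0 and 0, 1 and 1, and 0 and 1 passed, with TBCE at -0.84 ± 0.09 after miR-205 (limma, adjusted p = 3.7e-05). None of the CCT cofactors passed. Of the actin and tubulin genes 1 was higher and 2 lower with miR-130a, 1 and 6 with miR-203, and 2 and 4 with miR-205, and TUBG1 was lower after each, at -0.76, -0.81 and -0.60. Leaving out 1 array moved the counts of 2 or fewer to between 0 and 2.

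In AGO2-bound against total RNA of scramble cells, 7 of 7 CCT genes, 7 of 7 prefoldin-like and R2TP genes and 5 of 5 tubulin folding cofactors were lower in AGO2-bound RNA, as were the 4 tested prefoldin subunits (limma, medians -1.05, -1.72 and -1.02 for the lists). Of all genes 35.1% were higher and 37.8% lower in this comparison, with a median of -0.05. Of the CCT cofactors 1 of 2 was lower, and of the actin and tubulin genes 5 were higher and 3 lower, with ACTB higher by 1.20 ± 0.11 (limma, adjusted p = 1.1e-09). PFDN2, at 4.04, was thus high in AGO2-bound scramble RNA among related genes that were mostly low there.

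The genes whose profile over the 24 arrays was most like that of PFDN2 were RPL35, a ribosomal protein (Pearson r = 0.971), MIOS, a subunit of the GATOR complex (0.970), SMIM7, a small membrane protein (0.970), TRAP1, a mitochondrial chaperone (0.955), and SLC35A5, a nucleotide sugar transporter family member (0.955). SMIM7 had 5.63 to 7.59 on the other 21 arrays, against 10.03 to 10.77 in AGO2-bound scramble RNA. TRAP1 had 7.18 to 8.52 on the other arrays, against 10.02 to 10.43 in AGO2-bound scramble RNA. RPL35 had 11.08 to 12.48 against 13.70 to 13.93, MIOS 5.46 to 6.20 against 7.81 to 8.44, and SLC35A5 5.65 to 6.49 against 7.59 to 8.10, each with the other arrays set against AGO2-bound scramble. All 5 thus share the high AGO2-bound scramble group, on whose 3 arrays these coefficients mainly rest, and the arrays share their normalization runs. The coefficients of the other subunits with PFDN2 were -0.19 for PFDN1, -0.08 for PFDN4, -0.23 for PFDN5 and -0.07 for VBP1.

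**Figure D5:**
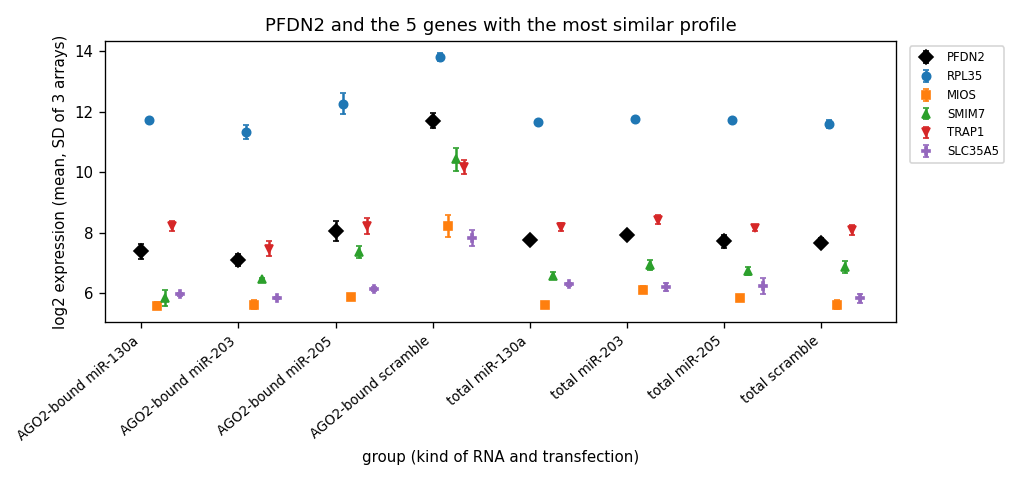
Mean log2 expression (y axis, bars the SD of 3 arrays) in each group of arrays (x axis) for PFDN2 and the 5 genes with the most similar profile over 24 arrays. All 6 are highest in AGO2-bound scramble RNA, where PFDN2 has 11.70 and SMIM7 10.42.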

How the data were processed

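The authors deposited log2 expression values of 22277 probe sets on 24 arrays, made with R 2.9.0, GCRMA and RMA per the submitters' processing notes; how these were combined is not given in the sources used here. The values were used as deposited. Probe sets with 1 annotated symbol (19064, of which 19052 matched by gene ID) gave 11963 genes, each read from its brightest probe set, and 6782 genes with a mean of at least 2.85 (the median over probe sets) were tested. Differences were tested with limma 3.58.1 in R 4.3.3 (lmFit, eBayes), with the 12 AGO2-bound and 12 total RNA arrays fitted apart, all 24 for comparisons between them, and Benjamini-Hochberg adjustment over all genes tested; the script was tested on simulated data. The number of arrays, 3 a group, limits the precision. The highest correlation between any 2 arrays was 0.9960, and none was treated as a duplicate.

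Genes named are all measured subunits, up to 3 members of a list with the smallest p among those that passed, and the 5 genes most correlated with PFDN2. The members, lists and tests were chosen with earlier results of these data known. Deviations of same-numbered arrays from their group means correlated at 0.11 to 0.52 between AGO2-bound miR-130a and scramble. The range was 0.16 to 0.58 between AGO2-bound miR-203 and scramble, and 0.13 to 0.58 between AGO2-bound microRNA groups. All of these passed a minimum of 0.1, so those numbers were taken to pair the arrays. The main fits nevertheless had no replicate block, which was run as an alternative. Between AGO2-bound miR-205 and scramble, numbers 1 and 3 correlated at 0.52 and 0.32 and number 2 at -0.04. The other groups did not pair. Alternatives were no filter, quantile normalization, median centring, an intensity trend, a replicate block, all 24 arrays in 1 fit, every probe set and each array left out.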

Additional observations from a re-analysis of the deposited data

Results flagged for a closer look

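For 5 results the AGO2-bound change of a subunit differed from its change in total RNA by the test of the difference itself (limma, AGO2-bound change minus total RNA change, adjusted p under 0.05). VBP1 differed by -0.99 after miR-203 and by 0.81 after miR-205. PFDN5 differed by -0.78 after miR-205. PFDN1 differed by -0.63 after miR-130a and by -0.68 after miR-203. These PFDN1 calls ended in 10 of 30 alternatives for miR-130a and in 3 of 30 for miR-203, while the VBP1 and PFDN5 calls held in all. Of all genes tested, 34.5% passed this test for miR-130a, 49.1% for miR-203 and 42.8% for miR-205.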

How the results depend on the processing

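For the 55 tested subunit results of the planned comparisons, 1324 of 1379 alternatives kept the direction and the side of the threshold, 28 lost the call, 12 gained one and 15 changed sign, none of these with a value past the threshold; 21 of 29 calls held in all alternatives. The number of the 4 or 5 tested subunits past the threshold was 0 with no filter for AGO2-bound miR-130a (1 otherwise) and for the miR-130a difference of changes (1 otherwise, and 0 with arrays centred), 2 in total RNA for miR-130a with arrays centred or an intensity trend (1 otherwise), and 1 with no filter in total RNA for miR-203 (2 otherwise) and miR-205 (0 otherwise). With 1 array left out it ranged over 0 to 1 for AGO2-bound miR-130a and for its difference of changes, 1 to 2 for total miR-203 and the miR-203 difference of changes, and 1 to 3 for miR-130a against miR-205. The cause was not tested.

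Signs turned where the values lay near 0. PFDN2 in total RNA was 0.00 after miR-130a without total scramble replicate 3, and after miR-205 -0.08 without total miR-205 replicate 2 and -0.03 without total scramble replicate 3 (at most 0.12 with 1 array left out). PFDN1 in total RNA after miR-205 was 0.02 with quantile normalization and -0.14 to 0.07 with 1 array left out (0.07 without total scramble replicate 1). PFDN4 in total RNA was -0.35 to 0.03 after miR-203 with 1 array left out (0.03 without total miR-203 replicate 1), and in its dim probe set 0.15 for miR-203 and 0.23 for miR-205. VBP1 in AGO2-bound against total RNA after miR-205 was -0.13 centred and -0.03 to 0.09 with 1 array left out (-0.03 without AGO2-bound miR-205 replicate 2). In the miR-130a difference of changes PFDN4 was -0.03 to 0.11 with 1 array left out and -0.09 in its dim probe set, and VBP1 was -0.15 to 0.04 (0.04 without AGO2-bound miR-130a replicate 2). PFDN4 was -0.07 for miR-130a against miR-205 in its dim probe set, and for miR-203 against miR-205 0.06 with quantile normalization, 0.04 centred and 0.02 to 0.06 without single arrays.

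The AGO2-bound difference of PFDN2 lay between -4.46 and -4.22 for miR-130a, -4.75 and -4.45 for miR-203, and -3.78 and -3.45 for miR-205 over all alternatives. With the replicate number as a block, the pairing changed no call of a subunit in the planned comparisons other than PFDN1 in AGO2-bound miR-205 (-0.40, limma adjusted p = 0.04). Deviations of same-numbered AGO2-bound miR-205 and scramble arrays correlated at 0.52, -0.04 and 0.32 for numbers 1, 2 and 3. Centring or quantile normalization moved the share of higher calls in total miR-130a to 41.7% or 45.4%, against 54.5%.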
